A study of Mus musculus with 10 samples.

Results

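The 10 genes of lipid uptake, transport and storage followed in single cells of the mouse axillary lymph node were Fabp4, Fabp5, Cd36, Lpl, Gpihbp1, Pparg, Apoe, Plin2, Aqp7 and Mgll. They were taken by name, as 10 of the 32285 genes listed, with earlier results of these data known. All of them had unique molecular identifiers (UMIs, each one a captured RNA molecule) in the stromal library. In the second library, called myeloid and stromal here, only 9 of them had any in the cells assigned to a cell type. Gpihbp1 had 0 in those cells.

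The nodes came from wild-type female BALB/C mice of 8 weeks. Mice of 2 groups carried tumours of 4T1, a mammary carcinoma line known to metastasise, or of 67NR, a sister line known not to. The cells had been injected orthotopically into the 4th mammary pad and had grown for 18 days, to 500 mm3. A further group received lipopolysaccharide (LPS), a bacterial cell wall component, under the skin for 72 hours, and naive mice were untreated. Cells were sorted, pooled from at least 3 mice per condition, tagged with 1 hashtag antibody per condition and sequenced from the 3′ end. The stromal library held 4 conditions, and the myeloid and stromal library held naive, 4T1 and 67NR. No map from cells to mice was given, so each condition is 1 sum of cells per library.

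Vascular endothelium takes up fatty acids that lipoprotein lipase (Lpl) frees from circulating triglyceride. Gpihbp1 carries Lpl across capillary cells and anchors it on their luminal face, Cd36 is a fatty acid translocase of the plasma membrane, and Fabp4 and Fabp5 bind fatty acids in the cytosol. Pparg is a nuclear receptor that drives adipocyte genes, Plin2 coats lipid droplets, Aqp7 is a glycerol channel, Mgll hydrolyses monoacylglycerol, and Apoe is the apolipoprotein of remnant particles and of cholesterol leaving macrophages. Mouse lymph nodes lie in fat, and capillaries of that kind are known for high Cd36, Fabp4 and Gpihbp1.

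All 10 genes are protein-coding in GRCm38, the assembly named mm10. Fabp4 lies at chr3:10204088-10208576 and Fabp5, a near neighbour, at chr3:10012548-10016607. The others lie at chr5:17781690-17888801 (Cd36), chr8:68880491-68907448 (Lpl), chr15:75596628-75599481 (Gpihbp1), chr6:115360951-115490399 (Pparg), chr7:19696109-19699188 (Apoe), chr4:86648386-86670060 (Plin2), chr4:41033074-41048139 (Aqp7) and chr6:88724412-88828360 (Mgll).

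Promoter sequences are shown for Cd36 and Aqp7, which were both far higher in adipose-type capillaries than in other capillaries below. The RefSeq table of GRCm38.p6 gave windows for 6 of the 10 genes (Apoe, Aqp7, Cd36, Mgll, Plin2 and Pparg), 12 windows in all, since a gene can have several starts. In the 250 bases before each start, the half-site of nuclear receptors, AGGTCA or its complement TGACCT, was searched on both strands. It stood in 6 of the 12 windows, from 4 genes (Aqp7, Cd36, Plin2 and Pparg), and in 14.0% of all 32851 windows. The full repeat AGGTCANAGGTCA was in 0 of the 12 and in 0.0335% of all. Windows of 1 gene overlap, so these shares are a description only. The printed stretches lie outside annotated exons, both on the minus strand, 5′ to 3′, with the half-site in capitals.

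Cd36 promoter, chr5:17835897-17836146, minus strand: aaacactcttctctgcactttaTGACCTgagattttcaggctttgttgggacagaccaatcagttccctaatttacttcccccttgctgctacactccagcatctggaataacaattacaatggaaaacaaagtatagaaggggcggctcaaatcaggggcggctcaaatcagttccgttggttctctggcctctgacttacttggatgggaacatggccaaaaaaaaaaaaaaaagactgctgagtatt

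Aqp7 promoter, chr4:41048140-41048386, minus strand: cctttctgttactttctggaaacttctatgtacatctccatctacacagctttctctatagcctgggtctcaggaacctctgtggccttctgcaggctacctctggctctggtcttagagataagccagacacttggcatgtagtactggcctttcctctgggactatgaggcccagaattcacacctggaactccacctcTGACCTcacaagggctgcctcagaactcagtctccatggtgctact

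Cells with at least 500 UMIs, at least 250 genes, at most 10% mitochondrial UMIs and 1 clear hashtag were used. They numbered 2350 in the stromal library and 5412 in the myeloid and stromal library, with a median of 12899 and 10802.5 UMIs per cell. Depth moved with condition, from a median of 9683.5 UMIs in naive to 15096.5 in LPS cells of the stromal library, and from 8834 in naive to 17445 in 4T1 cells of the other. Droplets with a second hashtag were removed (7.22% and 17%), while doublets within a condition cannot be seen by hashtag and stayed. The libraries shared 6 barcodes, of which 3 were used cells in both and 0 fell in the same gate. Cells were gated on marker genes that include none of the 10 genes. A blood endothelial cell needed 6 of 12 markers such as Cdh5 and Tie1, a capillary cell 4 of 8 capillary markers, and a fibroblast 5 of 10 markers such as Pdgfra and Col1a1. An adipose-type capillary cell needed 2 or more of Tcf15, Meox2, Timp4 and C1qtnf9, known markers of fat and muscle capillaries. Gates left 255 and 1684 cells of the 2 libraries unassigned, and shares of cells in this text describe what the sort let through. Levels are given as CPM: a sum of cells is scaled so that its UMIs add up to the same total in every gate and condition. Because a 3′ method counts molecules and not their length, CPM can be set side by side between genes, although capture efficiency may differ between them.

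**Figure D1:**
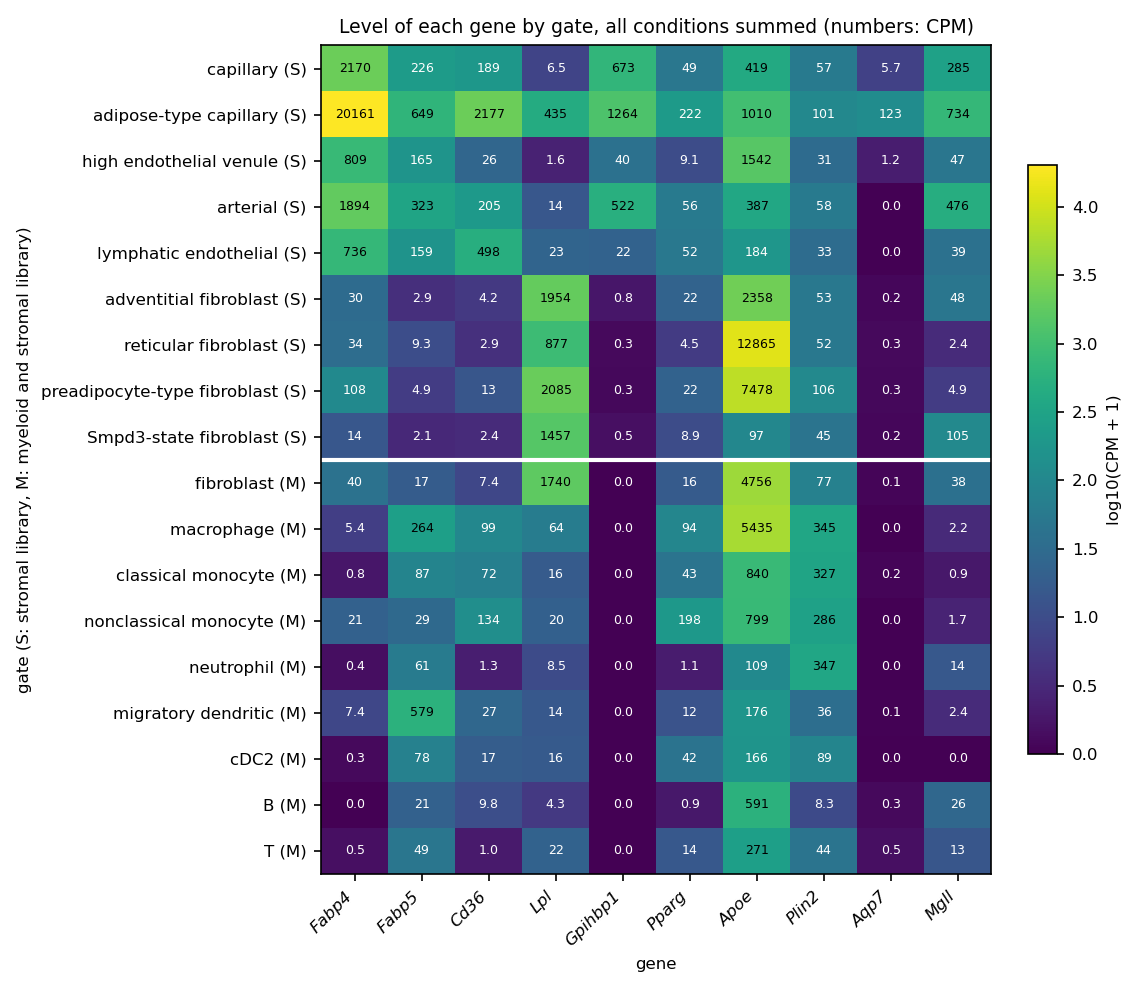
Level of each of the 10 genes (columns) in each gate (rows), all conditions summed, as CPM, with the colour on a log10 scale; S marks the stromal and M the myeloid and stromal library. Fabp4 reached 20161 in adipose-type capillaries, Apoe 12865 in reticular fibroblasts and 5435 in macrophages, and Lpl 2085 in preadipocyte-type fibroblasts.

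Several of the genes, Fabp4, Cd36, Gpihbp1, Mgll and Aqp7 among them, were highest in adipose-type capillaries, while Lpl, Apoe and Plin2 were highest in other cells. Gpihbp1 was nearly confined to blood endothelium among the gates measured: 1264 CPM in adipose-type capillaries, 673 in other capillaries and 522 in arterial cells, against 40 in high endothelial venules, 22 in lymphatic endothelium and 0.54 in fibroblasts of the stromal library. After each cell was thinned to 2000 UMIs, 52.7% of capillary cells held a Gpihbp1 UMI, against 0.0789% of fibroblasts, which are not known to make it and whose share serves as the level of free RNA. Before thinning the shares were 78.7% (95% interval 73.8 to 83.0%, median depth 7225 UMIs) and 0.785% (0.377 to 1.44%, median depth 15692). Intervals on levels and shares here are exact and cover counting error only.

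Fabp4 followed the same order with a longer tail. It stood at 20161 CPM in adipose-type capillaries, 2170 in other capillaries, 1894 in arterial cells, 809 in high endothelial venules, 736 in lymphatic endothelium and 41.3 in stromal-library fibroblasts. The related Fabp5 was highest in adipose-type capillaries (649 CPM) and in migratory dendritic cells (579), ahead of arterial cells (323), macrophages (264) and capillaries (226). Cd36 was highest in adipose-type capillaries (2177 CPM), then in lymphatic endothelium (498), arterial cells (205), capillaries (189) and nonclassical monocytes (134). The capillary interval for Cd36 (173 to 206) holds the arterial value, so this pair was not ordered.

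Lpl and Apoe marked other compartments. Lpl was a fibroblast gene in these nodes: 1602 CPM in stromal-library fibroblasts and 1740 in those of the myeloid and stromal library, with a UMI in 93.8% of the former. Capillaries held 6.49 CPM of Lpl, from 17 UMIs in 319 cells. Adipose-type capillaries were the exception among endothelial gates, at 435 CPM. Among the named gates Apoe was highest in reticular fibroblasts (12865 CPM), which build the scaffold of the node, followed by preadipocyte-type fibroblasts (7478) and macrophages (5435).

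The remaining storage genes were spread more evenly or were rare. Plin2 was at 345 CPM in macrophages, 347 in neutrophils and 327 in classical monocytes, and at 101 in adipose-type capillaries and 63.0 in stromal-library fibroblasts. Pparg was highest in adipose-type capillaries (222 CPM) and nonclassical monocytes (198), whose intervals (189 to 259 and 178 to 220) overlap. Mgll was highest in adipose-type capillaries (734 CPM), arterial cells (476) and capillaries (285), and Aqp7 passed 10 CPM in adipose-type capillaries alone among the separate gates (123 CPM, 90 UMIs).

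High endothelial venules, the entry gate for lymphocytes, held less Gpihbp1, Cd36, Mgll, Pparg and Fabp4 than capillaries, and more Apoe. Over the 4 conditions the log2 ratio of capillary to venule levels was 4.23 ± 1.34 for Gpihbp1 (SD over conditions), 3.25 ± 1.24 for Cd36, 2.72 ± 0.49 for Mgll, 2.33 ± 0.61 for Pparg and 1.32 ± 0.58 for Fabp4. Smaller ratios were found for Plin2 (0.79 ± 0.50), Aqp7 (0.44 ± 0.84), Fabp5 (0.42 ± 0.87) and Lpl (0.42 ± 0.70). For Aqp7, Fabp5 and Lpl the SD was larger than the mean. A few venule cells held much of the venule Cd36 and Mgll: without the cell with the most UMIs of the gene in each sum, the ratios were 5.16 ± 0.33 for Cd36, with the 4T1 venule sum then at 0 and set at 3 UMIs, and 3.30 ± 0.22 for Mgll. Apoe went the other way, at -1.97 ± 0.30, with venule levels of 1839 CPM in naive, 1233 in 4T1, 1498 in 67NR and 1987 in LPS nodes.

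The adipose-type capillaries numbered 27 in naive, 25 in 4T1, 18 in 67NR and 22 in LPS nodes, against 84, 68, 97 and 70 other capillary cells. Of the 10 genes, 9 were higher in the adipose-type cells in all 4 conditions, and Plin2 in 3 of 4. Among all 7536 genes with at least 50 UMIs over the 8 sums, which include all of these 10, 8.64% were higher in all 4 conditions. In naive nodes, 2.33% of the 2233 genes measured were called higher in them, where called means at least 2-fold with a 95% interval that excludes no change and measured means at least 50 UMIs in the larger sum. These conditions share the preparation, the gate was built on genes of the same cells, and 4 paired conditions cannot give an exact two-sided p below 0.125, so no test is given.

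Fabp4 was at 19020 CPM in naive, 27660 in 4T1, 12450 in 67NR and 22804 in LPS adipose-type cells, and at 2114, 2199, 2768 and 1475 in the other capillary cells. The 2 sets of values did not overlap, and the log2 ratio was 3.24 ± 0.78 (SD, n = 4 conditions). The share of all genes with no such overlap was not counted. Cd36 was at 1846, 3187, 1443 and 2470 CPM in the same order, against 277, 135, 175 and 178, a log2 ratio of 3.53 ± 0.81. Both are genes of fatty acid entry, and both were lowest in the 67NR cells of the adipose-type gate and highest in those of 4T1. However, 12 of the 18 67NR cells had exactly 2 of the gate markers, against 10 of the 25 4T1 cells. With 3 markers (3 and 9 cells) Fabp4 was at 41221 CPM in 67NR and 41040 in 4T1, and Cd36 at 4411 and 3801. With 4 (3 and 6 cells) Fabp4 was at 40233 and 39863.5, and Cd36 at 4794 and 6400. The part of marker number in this order was not tested.

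Lpl gave the widest separation of all. Adipose-type cells held 67, 130, 41 and 80 UMIs in naive, 4T1, 67NR and LPS (288, 865, 239 and 456 CPM), while the more numerous other capillary cells held 3, 1, 7 and 6. The log2 ratio of 6.30 ± 1.87 rests on those few capillary UMIs, and in 4T1, with 1 UMI in the lower sum, its interval ran from 6.51 to 14.33. Aqp7, which lets glycerol through the membrane, was at 137, 99.8, 81.5 and 165 CPM against 8.83, 1.67, 7.56 and 4.53, a log2 ratio of 4.62 ± 1.13 from sums of at most 32 UMIs.

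The anchor Gpihbp1 differed far less than the lipase it binds. Its levels were 863, 1730, 1251 and 1409 CPM in naive, 4T1, 67NR and LPS adipose-type cells and 729, 630, 619 and 729 in other capillary cells, a log2 ratio of 0.92 ± 0.50. In naive nodes the Gpihbp1 interval (-0.01 to 0.49) included no difference. Pparg gave 2.23 ± 0.21, from 150, 253, 227 and 285 CPM against 35.3, 51.8, 40.3 and 69.5, the steadiest ratio of the 10 together with Apoe (1.27 ± 0.21). Fabp5 gave 1.60 ± 0.72, Mgll 1.33 ± 0.72 and Plin2 0.75 ± 0.72.

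**Figure D2:**
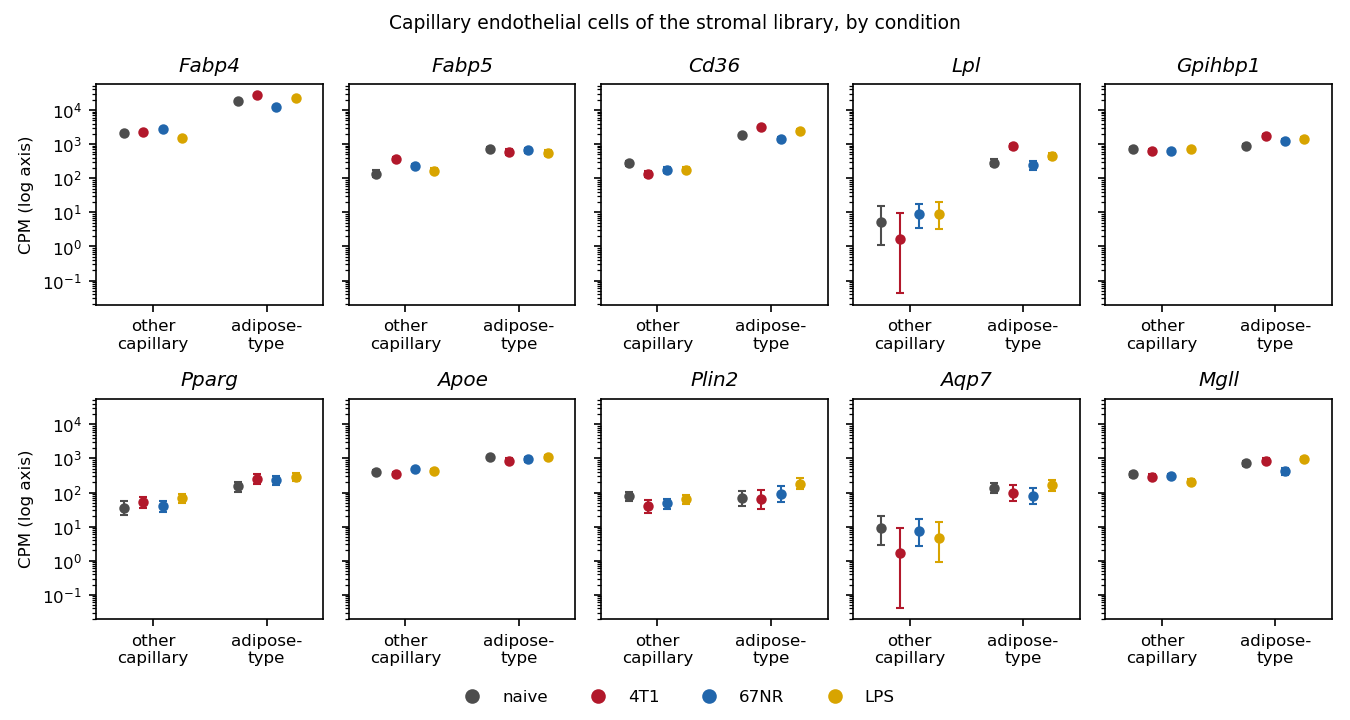
Level (CPM, log axis) of each gene in other capillary and adipose-type capillary cells of the stromal library, 1 point per condition with the exact Poisson 95% interval. Fabp4, Cd36, Lpl, Pparg, Aqp7, Apoe, Fabp5, Gpihbp1 and Mgll were higher in the adipose-type cells in all 4 conditions.

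The levels climbed with the number of core markers. In blood endothelial cells with 0, 1, 2, 3 and 4 of Tcf15, Meox2, Timp4 and C1qtnf9 (398, 192, 46, 29 and 17 cells), Fabp4 was at 1192, 2149, 8512, 34194 and 43183 CPM. Cd36 was at 99.5, 146, 819, 3575 and 5267, and Pparg at 29.5, 40.7, 68.6, 379 and 572. Lpl was at 6.43 and 5.43 CPM with 0 and 1 marker and at 112, 860 and 1015 with 2, 3 and 4. Cells with 3 or 4 markers were shallower (medians of 5485 and 5367 UMIs) than those with 0 or 1 (7022 and 9966.5). Apoe did not climb in this way (847, 950, 805, 1422 and 1134). The 12 cells of 67NR with exactly 2 markers, of the 18 in that gate, held 2199 CPM of Fabp4, while the 3 with 3 markers and the 3 with 4 held 41221 and 40233. In naive, 4T1 and LPS nodes cells with 2 markers held 10457, 11470 and 11934 CPM of Fabp4.

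**Figure D3:**
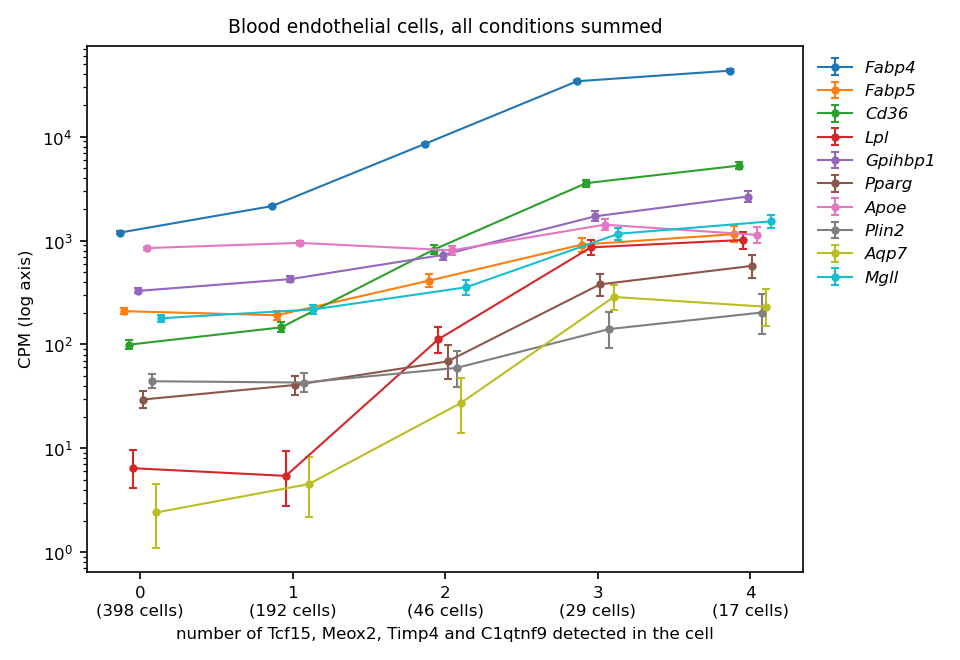
Level of the 10 genes (CPM, log axis, exact Poisson 95% intervals) in blood endothelial cells of the stromal library by how many of Tcf15, Meox2, Timp4 and C1qtnf9 were detected, conditions summed. Fabp4 went from 1192 to 43183 and Cd36 from 99.5 to 5267, while Apoe stayed between 805 and 1422.

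Within the adipose-type gate the genes were found together. Lpl was detected in 47 of the 92 cells. Cells with an Lpl UMI held 40435 CPM of Fabp4 against 8529 in the 45 without, 4327 against 944 of Cd36, 2377 against 625 of Gpihbp1 and 530 against 45.3 of Pparg, at median depths of 5248 and 9022 UMIs. Detection and level share the same cells and libraries, so this is a description.

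Among other capillary cells, the 99 with a Cd36 UMI held 4679 CPM of Fabp4 and 110 of Pparg, against 1085 and 23.0 in the 220 without. In those same Cd36 cells Apoe was lower, at 277 against 480 CPM. So Fabp4, Cd36 and Pparg went together outside the adipose-type gate as well.

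Markers of other cells were checked beside these values. Of 8 adipocyte markers, Adipoq, Plin1, Lep, Retn and Adrb3 had 0 UMIs in the adipose-type gate. Car3 had 3, 7, 1 and 16 UMIs in naive, 4T1, 67NR and LPS, Cfd 0, 4, 0 and 4, and Cidec 2 in all. The list summed to 17.2 CPM in naive, 73.2 in 4T1, 5.82 in 67NR and 120 in LPS cells. In the 47 Lpl-bearing cells the fibroblast genes Dcn, Col3a1, Col1a1 and Pdgfra had 11, 7, 6 and 2 UMIs, against 318 of Lpl.

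Between conditions, 320 combinations of gene, gate, library and comparison were measured for the 10 genes in gates of at least 20 cells. Of these, 63 (19.7%) were called. Over all genes in the same comparisons 16761 of 306843 were called, or 5.46%. Of the 63, 30 were higher and 33 lower in the first-named condition, and 46 were still called when the cell with the most UMIs of that gene was left out of each sum. All of these are ratios of 1 sum to 1 sum with no replicate check, and comparisons within a gate share cells, such as the naive ones. The fibroblast and blood endothelial gates were counted beside their own sub-gates, so the same cells can enter several of the called ratios. In such sums, fewer expressing cells and less RNA per cell cannot be told apart, nor can a change in which cells fall in a gate.

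In other capillary cells Fabp5 was higher and Cd36 lower in 4T1 than in naive nodes. Fabp5 was at 136 CPM in naive, 376 in 4T1, 227 in 67NR and 168 in LPS nodes, and the log2 ratio of 4T1 to naive was 1.47 (1.09 to 1.86), or 1.42 without the top cell. Cd36 was highest in naive nodes, and the 4T1 ratio of -1.03 (-1.44 to -0.64) became -0.89, and so was no longer called, without the top cell. Of 6 genes measured in 4T1 over naive, 2 were called, 1 higher and 1 lower, where 2.27% of all genes were called. The median of the 6 was -0.17 on the log2 scale, against 0.01 for all genes.

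The adipose-type capillaries of 4T1 nodes held more Lpl and Gpihbp1 than those of naive nodes. The log2 ratio was 1.59 (1.15 to 2.04) for Lpl and 1.00 (0.73 to 1.28) for Gpihbp1, which became 1.67 and 1.08 without the top cell. Of 7 genes measured there, 2 were called, both higher, with a median of 0.54 against -0.06 for all genes, 7.27% of which were called. In LPS nodes 0 of 8 were called (8.35% of all genes), with a median of 0.42. The adipocyte list given above was also higher in the 4T1 and LPS cells than in the naive ones, and its part in these ratios was not tested. Exactly 2 of the gate markers were found in 10 of the 25 4T1 cells and in 16 of the 27 naive cells. Lpl was at 150 CPM in 4T1 and 149 in naive cells with 2 markers, 1497 and 474 with 3, and 1341 and 743 with 4. Gpihbp1 was at 615 and 700 with 2, 2521 and 816 with 3, and 2773 and 1695 with 4. The part of marker number in the 4T1 ratios was not tested. The 67NR cells, at 18, were too few for a ratio. Of 94 other genes of the pathway, 9 were measured in 4T1 over naive and 2 were called. The water channel Aqp1 was lower (log2 ratio -1.0), and was at -2.03 in LPS over naive. Tcf15, a regulator of fatty acid uptake in endothelium, was higher in 4T1 (1.13), but it is one of the genes that set the gate.

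Lymphatic endothelium, which drains lymph through the node, held more of both fatty acid binding proteins in each of the other 3 conditions than in naive nodes. Fabp4 was at 231 CPM in naive, 771 in 4T1, 641 in 67NR and 1396 in LPS cells, with log2 ratios to naive of 1.74 (1.39 to 2.11), 1.47 and 2.60 (2.24 to 2.96). The naive sum is small, 75 UMIs in 23 cells, and 1 cell held 38 of them. Without the top cells the Fabp4 ratios became 2.52, 2.09 and 3.38. Thinned to 2000 UMIs, 21.7% of naive lymphatic cells held a Fabp4 UMI, against 45.2%, 38.1% and 57.7% in 4T1, 67NR and LPS.

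Fabp5 was at 30.8, 116, 223 and 162 CPM in the same cells, with log2 ratios of 1.91, 2.85 and 2.4 on a naive sum of 10 UMIs, of which 1 cell held 6. Without the top cells the Fabp5 ratios were 3.09, 3.91 and 3.22. Apoe went down rather than up in the tumour nodes, from 345 CPM in naive to 121 in 4T1 and 152 in 67NR, log2 ratios of -1.51 and -1.18, and was at 280 in LPS. These levels are far under those of fibroblasts in the same library, whose Apoe was also lower in 4T1 and 67NR than in naive nodes. The part of free RNA in the lymphatic Apoe values was not tested. Pparg was higher in 67NR than in naive nodes (1.07) and Cd36 was called in none of the 3. The called share of all genes was 6.81% in 4T1, 6.32% in 67NR and 12.2% in LPS. Of the 5 of the 10 genes measured in 67NR over naive, 4 were called, 3 higher and 1 lower (median 1.07 against 0.11 for all genes). In the pathway lists Angptl4, a secreted inhibitor of Lpl and a known Ppar target, was higher in 4T1 (1.32) and 67NR (1.99), and Cebpb was lower in LPS (-1.41).

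**Figure D4:**
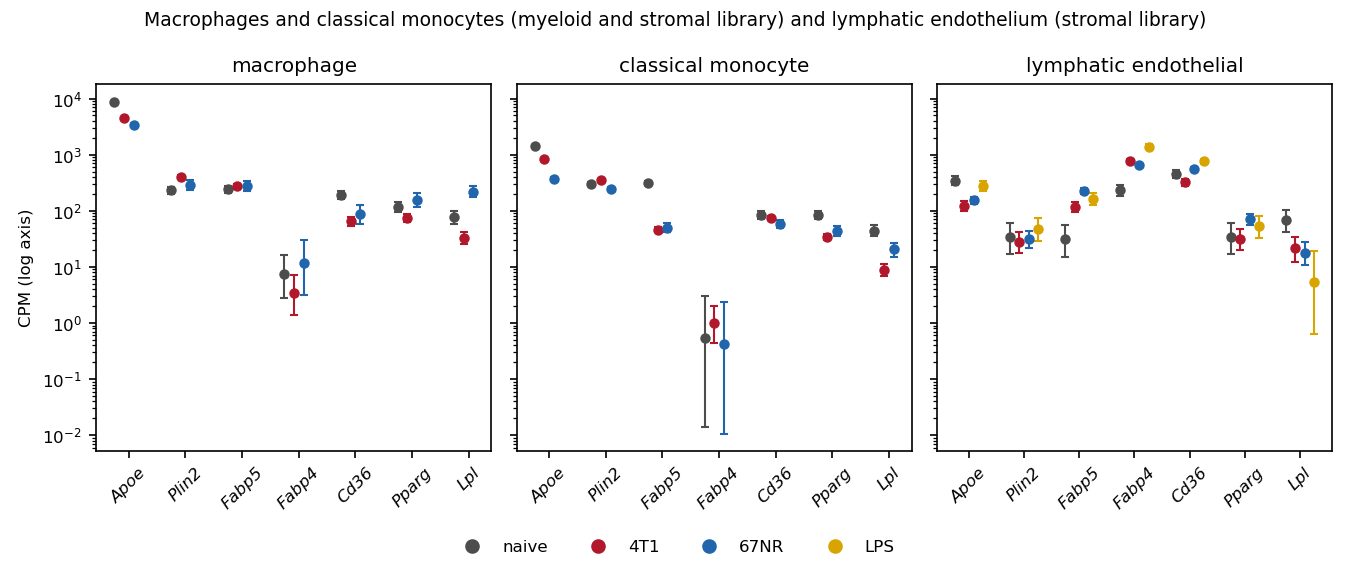
Level (CPM, log axis, exact Poisson 95% intervals) of 7 genes in macrophages and classical monocytes of the myeloid and stromal library and in lymphatic endothelium of the stromal library, by condition. Naive cells had the highest Apoe in all 3 panels and the lowest Fabp4 in lymphatic endothelium.

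Fibroblasts, with their reticular sub-gate, had at least 20 cells of naive, 4T1 and 67NR nodes in both libraries. They were tested across libraries, on 6 sums of 3 conditions with the library as a block. Of 11842 genes tested, 1.82% passed in 67NR over naive and 0.118% in 4T1 over naive (edgeR quasi-likelihood test, Benjamini-Hochberg adjusted p under 0.05). Of the 10 genes, 8 were tested, and Gpihbp1 and Aqp7 had too few UMIs. Nothing says that the 2 libraries came from separate mice. The p-values thus reflect how far the differences between conditions varied across 2 libraries and no more, and this variation may be technical.

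Pparg and Fabp4 fell in 67NR nodes, 2 of the 8, where 0.49% of all genes fell. Pparg was at 22.9 and 35.2 CPM in naive fibroblasts of the stromal and the myeloid and stromal library, and at 9.19 and 8.86 in 67NR, a log2 fold change of -1.62 ± 0.30 (SE, adjusted p = 0.0409, edgeR). Fabp4 was at 72.6 and 52.1 in naive and at 28.6 and 28.5 in 67NR, -1.09 ± 0.19 (adjusted p = 0.0315, edgeR). Naive values did not overlap with 67NR values in either gene, at 2 values per condition, and the share of all genes that separate so was not counted.

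The Fabp4 call rested on few cells. Of the 311 Fabp4 UMIs in fibroblasts of the myeloid and stromal library, 12 of 498 cells held 278, and 1 naive cell alone held 90 of its condition's 114. Without the top cell of each sum Fabp4 was at -0.32 (adjusted p = 0.777, edgeR), while Pparg was at -1.58 (adjusted p = 0.0600, edgeR). Pparg was called in 7 of the 11 other settings that gave it a p, and Fabp4 in 6 of 12. Thinning to 1000 UMIs gave a p for neither gene, and reticular fibroblasts alone gave none for Pparg.

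In 4T1 over naive 0 of the 8 passed, and 5 had an unadjusted p under 0.05, as did 14.0% of all genes. DESeq2 called 173 of all genes in this comparison, and edgeR 14. Pparg was at 12.2 and 7.58 CPM in 4T1 nodes, a log2 fold change of -1.48 ± 0.32 (adjusted p = 0.0969, edgeR). Apoe was at 7822 and 5772 CPM in naive, 4001 and 2871 in 4T1, and 4349 and 5469 in 67NR nodes. Both 4T1 values lay below both naive values, at -0.95 ± 0.23 (adjusted p = 0.127, edgeR), but the difference did not pass. How many of all genes separate in this way was not counted. The 67NR values were also under the naive ones, but by less (-0.40, adjusted p = 0.454, edgeR).

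Of the others, Cd36 was at 14.4 and 12.3 CPM in naive, 4.19 and 6.32 in 4T1, and 2.27 and 4.75 in 67NR fibroblasts, -2.02 ± 0.43 in 67NR over naive (adjusted p = 0.0595, edgeR). In that comparison Plin2 gave -0.68 ± 0.15 and Mgll 0.73 ± 0.23 (edgeR adjusted p = 0.0670 and 0.169). Fabp5 was higher, at 1.20 ± 0.40 in 67NR and 1.49 ± 0.41 in 4T1 over naive (edgeR adjusted p = 0.189 and 0.168). Lpl, the most abundant of the 8 after Apoe, gave -0.18 in 67NR and -0.14 in 4T1. The median of the 8 was -0.54 in 67NR and -0.27 in 4T1, against 0.00 for all genes. In 4T1 over 67NR 0 of 11842 genes (0.0%) passed in edgeR, DESeq2 called 2, and an unadjusted p under 0.05 was found in 461 (3.89%) and in 3 of the 8. From the pathway lists 69 of 94 genes were tested, and 1 passed in 67NR over naive, Daglb, a diacylglycerol lipase, which rose by 2.05 ± 0.28 on the log2 scale (adjusted p = 0.0213, edgeR).

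**Figure D5:**
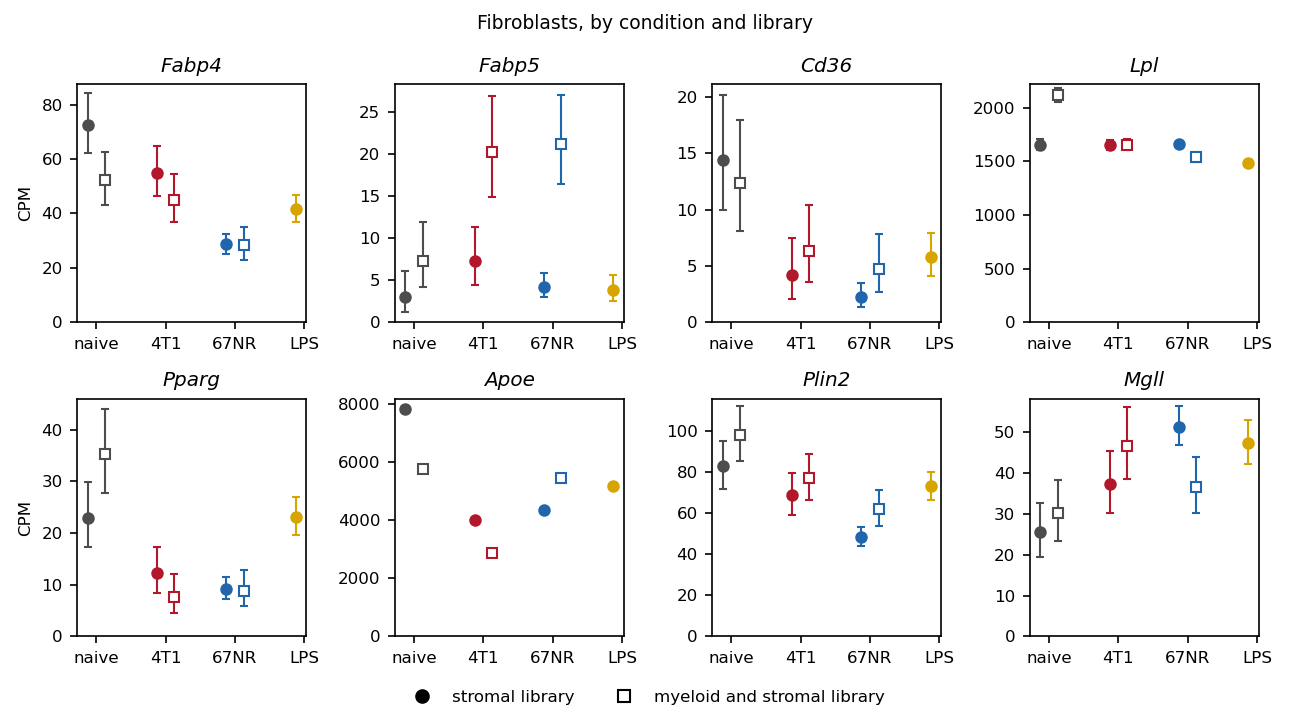
Level (CPM, linear axes from 0, exact Poisson 95% intervals) of 8 genes in fibroblasts by condition, filled circles for the stromal and open squares for the myeloid and stromal library. Pparg lay at 22.9 and 35.2 in naive and at or under 12.2 in 4T1 and 67NR fibroblasts of both libraries.

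The fibroblast gate is a mixture whose make-up differed between conditions. Cells with 3 or more of Smpd3, Mrgprg, Duox2 and Rgs6, a state first seen in these data, were 22 of 185 naive, 37 of 157 4T1, 214 of 556 67NR and 39 of 376 LPS fibroblasts in the stromal library. They held 97.2 CPM of Apoe, against 2358 in adventitial fibroblasts, and 105 of Mgll against 48.3. Daglb, the pathway gene that rose, was itself higher in them than in adventitial fibroblasts, by a log2 ratio of 2.99 ± 0.62 (SD over 4 conditions). Without them Pparg in 67NR over naive was at -1.45 (adjusted p = 0.0453, edgeR) and Fabp4 at -0.69 (adjusted p = 0.0634, edgeR). The adipocyte list also moved with condition: it summed to 103 CPM in naive, 11.4 in 4T1, 11.6 in 67NR and 63.3 in LPS fibroblasts of the stromal library, and to 108, 5.89 and 54.4 in naive, 4T1 and 67NR of the other. Lep was at 0 UMIs in all 4 stromal-library sums. The part of either in the fibroblast results, beyond the values just given, was not tested.

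Fibroblast types differed in the enzyme and in the apolipoprotein. Preadipocyte-type fibroblasts, gated on 4 of 8 markers of fat progenitors, held more Lpl than reticular fibroblasts, a log2 ratio of 1.36 ± 0.40 over the 4 conditions of the stromal library and 2.50 ± 0.40 over the 3 of the other (SD). Apoe was lower in them, at -0.82 ± 0.22 and -0.42 ± 0.27. Plin2 was higher, at 1.18 ± 0.56 and 1.71 ± 0.21. Apoe in stromal-library reticular fibroblasts was at 14241, 11268, 13604 and 12106 CPM in naive, 4T1, 67NR and LPS, with naive the highest and 4T1 the lowest.

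A small set of fibroblasts carried most Fabp4. In the stromal library 33 of 1274 fibroblasts had 5 or more Fabp4 UMIs and held 672 of all 841. Of these 33, 19 fell in the preadipocyte-type gate, 7 in the adventitial and 3 in the reticular one, and by condition they were 6 naive (3.24% of fibroblasts), 8 4T1 (5.10%), 6 67NR (1.08%) and 13 LPS (3.46%). They held 4215 CPM of Lpl against 1511 in the rest, 93.4 against 12.9 of Pparg, 109 against 1.42 of Cd36 and 369 against 52.3 of Plin2, but less Apoe (3647 against 5022). Adipocyte markers were also higher in them: Car3 was at 226 CPM against 27.5, Plin1 at 13.1 against 2.23 and Adipoq at 2.92 against 0.355, from 155, 9 and 2 UMIs, while Lep, Cfd, Retn and Adrb3 were at 0. Of the 12 blood endothelial markers, Cdh5, Tie1, Esam, Flt1 and Emcn had 0 UMIs in them. Eng was at 56.9 CPM against 50.9, Kdr at 2.92 against 2.08 and Ptprb at 1.46 against 0.711, and Pecam1 (90.5 against 105), Plvap, Egfl7 and Ecscr were lower than in the rest. The part of RNA from adipocytes or endothelium in these values was not tested.

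By 1-sum ratios in the sub-gates, preadipocyte-type fibroblasts of the stromal library held less Fabp4 in 4T1 (84.1 CPM) and LPS (56.2) than in naive nodes (208), log2 ratios of -1.31 and -1.89 (7.14% and 3.87% of all genes called). They became -1.19 and -1.54 without the top cell. In the adventitial gate Mgll was at 22.4 CPM in naive and 68.4 in LPS nodes, a ratio of 1.61, with 4.72% of all genes called. A single cell decided another ratio: in reticular fibroblasts 1 cell of 67NR held 56 of 67 Fabp4 UMIs, so that the ratio to naive went from 3.86 to -0.35 without it (6.61% of all genes called). In adventitial fibroblasts 1 cell of 4T1 held 47 of 88, for a log2 ratio to naive of 4.5 that was 4.0 without it (6.41% called).

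Macrophages were set apart from classical monocytes by Apoe. Over naive, 4T1 and 67NR nodes the log2 ratio of macrophages to classical monocytes was 2.74 ± 0.41 for Apoe (SD, n = 3 conditions), 1.15 ± 0.69 for Pparg and -0.01 ± 0.35 for Plin2. The gates held 46, 96 and 21 macrophages and 112, 356 and 134 classical monocytes. Free RNA bears on the low values: after thinning, Apoe was detected in 81.9% of macrophages and 45.6% of classical monocytes, but also in 14.1% of T cells. B cells held 591 CPM of Apoe, not far under classical monocytes (840), and the thinned share of B cells with an Apoe UMI was 43.8%. The monocyte values of Apoe below are therefore given beside those of B cells.

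Macrophage Apoe was at 8768 CPM in naive, 4467 in 4T1 and 3434 in 67NR nodes. The naive sum was the highest, and the 67NR ratio of -1.35 was called while that of 4T1 was not. In classical monocytes Apoe was at 1401, 852 and 375 CPM in naive, 4T1 and 67NR, with a log2 ratio of -1.90 (-2.01 to -1.79) for 67NR over naive, -0.72 for 4T1 over naive and 1.18 for 4T1 over 67NR. In B cells Apoe was at 490, 447 and 761 CPM, so their 4T1 sum was also under the naive one and their 67NR sum was above it. The macrophage and the classical monocyte sums were thus both highest in naive and lowest in 67NR nodes. In 67NR nodes the monocyte value lay under that of B cells, so the monocyte ratios with 67NR are not read as expression. Called shares of all genes were 6.08% and 7.11% in macrophages of 4T1 and 67NR, and 6.63%, 3.75% and 2.96% in the 3 monocyte comparisons.

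Plin2, which marks lipid droplets, differed by less than 2-fold between conditions in macrophages and in classical monocytes. It was at 230 CPM in naive, 401 in 4T1 and 284 in 67NR macrophages and at 305, 358 and 243 in classical monocytes, and none of these comparisons was called. Neutrophils differed: Plin2 was at 212 CPM in naive, 738 in 4T1 and 286 in 67NR neutrophils, a ratio of 1.80 (1.63 to 1.97) for 4T1 over naive that was 1.82 without the top cell and 2.30 with cells thinned to 1000 UMIs. In neutrophils 15.5% of all genes were called in this comparison. There, Hilpda, a droplet protein that restrains lipolysis, was also higher (1.62), and so was the sterol exporter Abca1 (2.18). Neutrophil depth differed, with medians of 3538 UMIs in naive and 6111.5 in 4T1 nodes.

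Cd36 and Lpl in macrophages depended on how they were counted. Cd36 was at 190 CPM in naive, 64.6 in 4T1 and 87.8 in 67NR macrophages, log2 ratios of -1.56 (-1.91 to -1.21) and -1.11. With each cell thinned to 1000 UMIs, which gives shallow cells the same weight as deep ones, the Cd36 ratios were 0.23 and 0.10. Lpl was at 75.9, 33.3 and 220 CPM, called lower in 4T1 (-1.19) and higher in 67NR (1.53), and the second became 0.91 without the top cell. The median of the 6 measured genes was -0.82 in 4T1 and 0.24 in 67NR, against 0.04 and -0.04 for all genes.

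Pparg in the monocyte line was highest in naive nodes. Classical monocytes held 85.0 CPM of Pparg in naive, 33.7 in 4T1 and 44.1 in 67NR nodes, and the 4T1 ratio of -1.34 was -1.27 without the top cell. Nonclassical monocytes, the patrolling type, held 320 CPM of Pparg in naive (283 UMIs in 50 cells), 31.4 in 4T1 (15 UMIs in 16 cells) and 125 in 67NR nodes (49 UMIs in 18 cells). Their Cd36 was at 245, 18.9 and 25.4 CPM. The 4T1 and 67NR sums have under 20 cells, so no ratio is given. Neutrophils and B cells, as a measure of free RNA, held 1.13 and 0.917 CPM of Pparg.

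Other ratios in this library rested on few cells or on low levels. Fabp5 in classical monocytes was at 317 CPM in naive against 45.7 in 4T1 and 49.5 in 67NR, but 1 naive cell held 463 of 578 UMIs, and without the top cells the ratios of -2.79 and -2.68 became -0.59 and -0.69. Lpl in classical monocytes (16.4 CPM over all conditions) was at or under its level in T cells (21.8), and is not read. Apoe in migratory dendritic cells was at 79.2 CPM in naive, 507 in 4T1 and 103 in 67NR nodes, a 4T1 ratio to naive of 2.68 (4.84% of all genes called), which was 0.38 when cells were grouped by Leiden clusters instead. After thinning, 6.56%, 11.5% and 5.56% of these dendritic cells held an Apoe UMI, under the 14.6% of neutrophils, so this is not read as expression. In T cells the Apoe ratio of 4T1 to naive was -2.18 (8.13% called), on a naive sum of 501 UMIs of which 1 cell held 261, and was -1.64 without the top cells. Of the other pathway genes, G0s2, an inhibitor of lipolysis, was lower in 4T1 monocytes (-1.95) and in 67NR macrophages (-2.32), and Apoc2, the activator of Lpl, was higher in 4T1 monocytes (1.48) and macrophages (1.62).

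The genes whose pattern over the 35 stromal sums of gate and condition was most like that of a member were, by Pearson r of log2(CPM + 10): Rbp7 (0.986), Clic5 (0.974) and Rgcc (0.970) for Gpihbp1. For Fabp4 they were Slc9a3r2 (0.932), Cav2 (0.931) and Cav1 (0.929), and for Cd36 Cldn5 (0.940), Cavin2 (0.926) and Trp53i11 (0.921). For Lpl they were the fibroblast-high genes Klf9 (0.936), Agmo (0.934) and Abca8b (0.931), those for Apoe included Ldhb (0.888) and Deptor (0.873), and for Fabp5 Lmcd1 (0.964), Ptprb (0.963) and Tinagl1 (0.962). Pparg was nearest Cavin2 (0.848) and then Cd36 itself (0.814), Mgll nearest Utrn (0.923), and Plin2 had no close match (Junb, 0.692). Aqp7 was too rare. The sums are of separate gates, but they come from 1 library and share its preparation. Rgcc is also one of the capillary markers, so these are descriptions. Among the 10 themselves, Fabp4 went with Fabp5 (0.927), Cd36 (0.883) and Gpihbp1 (0.880), and opposite to Lpl (-0.615).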

How the data were processed

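The authors deposited UMI counts per gene and barcode, with hashtag counts, unnormalized; Cell Ranger 7.0 and mm10 come from the submitters' processing notes. No source used here states the annotation, the cell calling or whether introns counted. The stromal library totalled 36622159 UMIs over 3507 barcodes and the other 94930947 over 7823; 2535 and 6526 passed the filters. A hashtag was called at 10 or more counts and at least 3 times the next. Gates used marker genes only, and the Smpd3 group of fibroblasts was defined after the data were seen.

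Counts were summed per library, gate and hashtag condition. Fibroblast sums were tested with edgeR 4.0.16 (R 4.3.3; filterByExpr, TMM scaling, quasi-likelihood test, library as a block, Benjamini-Hochberg). The libraries pair the conditions, since those of 1 library were prepared together per the labels. DESeq2 1.42.0 was an alternative. Tested on simulated data shaped like 4T1 over naive (11564 genes), edgeR found 55.6% of changes of log2 1, found 94.9% at log2 2, and made 7 false calls. That simulation gave every gene the same spread, so it does not cover genes that rest on few cells, such as Fabp4. Other gates have 1 sum per condition and no test: their log2 ratios of CPM have a 95% interval from the exact binomial of the 2 counts, for counting error alone. On simulated classical monocyte counts (7151 genes) 95.9% of intervals held an unchanged ratio. This speaks to counting error only, and not to the spread between cells or between mice. Alternatives covered the cell filters, hashtag calls, gates, Leiden clusters (scanpy 1.11.5), thinning and scaling.

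The 10 genes, the marker and pathway lists and the rules were chosen with earlier results of these data known. Named are all 10 genes, pathway genes that passed the fibroblast test, the 3 largest ratios of pathway genes per gate and comparison, of which some are given, and the 3 most alike genes, of which 1 is not reported here. Coordinates are from the GENCODE annotation of GRCm38. Tables used pandas 2.3.3 and scipy 1.17.1 under Python 3.11.15.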

Additional observations from a re-analysis of the deposited data

Results flagged for a closer look

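Some genes had log2 ratios of opposite sign in 2 cell types of the same library, under the same comparison, and this is why they are listed. None of these differences was tested, since each condition is 1 sum per cell type. Fabp4 in 4T1 over naive nodes had a log2 ratio of -1.31 in preadipocyte-type fibroblasts and of 1.74 in lymphatic endothelium of the stromal library. In LPS over naive nodes the Fabp4 ratios were -1.89 and 2.60 in the same cell types. Apoe in 4T1 over naive nodes of the myeloid and stromal library was at 2.68 in migratory dendritic cells and at -2.18 in T cells, both of which held few cells with Apoe. As given above, the dendritic ratio is not read as expression, and 1 cell held much of the naive T-cell sum.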

How the results depend on the processing

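In fibroblasts, edgeR called 14 genes in 4T1 over naive, 215 in 67NR over naive and 0 in 4T1 over 67NR. DESeq2 with the library as a block gave 173 in the first and 2 in the last, and no gene filter gave 847, 1125 and 120. Without the library as a replicate block, the pairing of conditions was lost and edgeR called 0 genes in all 3 (1036, 1100 and 191 had an unadjusted p under 0.05), with Fabp4 in 67NR over naive at -1.09 and Pparg at -1.63 (edgeR adjusted p = 0.251 and 0.231). In 4T1 over naive, a minimum of 1000 UMIs per cell gave 28, at most 5% mitochondrial UMIs 9 and a stricter gate 25. Cells thinned to 1000 UMIs gave 69 there and 2 in 4T1 over 67NR. A hashtag ratio of 10 gave 2 and 27 against naive, and Leiden clusters gave 230, 389 and 8. Among settings chosen after seeing the data, leaving out droplets of 10 or more Igkc UMIs gave 36 in 4T1 over naive, leaving out the Smpd3 group gave 223, 362 and 5, and reticular fibroblasts alone gave 13 in 67NR over naive and 2 in 4T1 over 67NR, with Fabp4 in 67NR over naive at 2.89 (edgeR adjusted p = 0.508). Over the settings that gave each gene a p (not thinning, nor reticular fibroblasts alone for Pparg), Fabp4 ranged from -1.18 to 2.89 (edgeR adjusted p from 1.73802e-05 to 0.777) and Pparg from -1.81 to -1.35 (2.09972e-06 to 0.231). Leaving out a library leaves no residual degrees of freedom, so it gives no count of calls.

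Of ratios of 1 sum to another, 63 were called. Thinning to 1000 UMIs called 14 of 114 measured, of which 9 were among the 63, and the other settings called 50 to 63, of which 35 (Leiden clusters) to 63 were among them. Thinning turned 12 of 320 values: Fabp4 in reticular fibroblasts of the stromal library (67NR over naive -3.45, LPS over naive -0.87, 4T1 over 67NR 1.96), Fabp5 in those of the other library (67NR over naive -0.87), Cd36 in macrophages (4T1 over naive 0.23, 67NR over naive 0.10), Fabp4 in migratory dendritic cells (4T1 over naive 0.45, 67NR over naive 0.76), Cd36 there (67NR over naive 0.40, 4T1 over 67NR -1.90) and Mgll in B cells (67NR over naive -1.74, 4T1 over 67NR 0.0489). A stricter gate turned Lpl in classical monocytes of 67NR over naive (0.0871). Leiden clusters turned 6: Fabp4 in reticular fibroblasts (67NR over naive -0.42, LPS over naive -0.12, 4T1 over 67NR 0.0158), Fabp5 in fibroblasts of the myeloid and stromal library (67NR over naive -0.18), Cd36 in macrophages (67NR over naive 0.21) and Lpl in classical monocytes (67NR over naive 0.81). Leaving out the top cell, a setting added after seeing the data, turned Fabp4 in reticular fibroblasts (67NR over naive -0.35). The cause was not tested.

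For adipose-type over other capillaries, 84 of 100 values stayed within 1 SD and 0 changed sign. The others were Fabp4, Cd36, Plin2 and Aqp7 by Leiden clusters (4.27, 4.63, 1.86 and 5.80), Aqp7 thinned (2.37), Gpihbp1 thinned, by stricter gate and by Leiden clusters (1.71, 1.63 and 1.92), Mgll by the last 2 (2.52 and 2.31), and Pparg at a hashtag ratio of 10 (2.46), at most 5% mitochondrial UMIs (2.43), thinned (1.54), by stricter gate (3.20), by Leiden clusters (3.66) and without the top cell (1.93). Low counts limit Aqp7 in every gate, Lpl in other capillaries and all ratios on naive lymphatic cells.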
